A study of Rattus norvegicus with 6 samples.

Results

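Hydroxysteroid and androgen metabolizing enzymes decide how much active sex steroid or glucocorticoid a cell is exposed to, by moving hydrogen on and off the steroid ring or by removing a sulfate group. The set was chosen by name: Hsd17b2, Hsd17b4, Hsd17b6, Hsd17b8, Hsd17b10, Hsd17b11, Hsd17b12, Hsd11b1, Srd5a1 and Sts. Of these 10 names, 9 had a row among the 30957 genes of the liver table, and all 9 had enough counts to be tested. Hsd17b6 had no row under its name and was not analysed here.

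The livers came from female Sprague Dawley rats that received faecal microbiota transplantation (FMT). Recipients of the t-PBS group were gavaged with faecal microbiota of donors injected with phosphate-buffered saline (PBS), and recipients of the t-DHEA group with that of donors injected with dehydroepiandrosterone (DHEA), an androgen precursor used to model polycystic ovary syndrome (PCOS). All recipients were bought at 3 weeks of age, had first been made pseudo germ-free with antibiotics in their drinking water, and were not injected with DHEA themselves. According to the paper, DHEA sulfate passed to recipients with the microbiota and was higher in faeces of DHEA-treated donors. DHEA itself was not detected there, and the paper considered the sulfate level very low and possibly irrelevant to the effect. Donor pellets were pooled, so recipients of a group shared a donor pool and were not exposed to independent donors. Of 6 recipients per group, 3 livers were sequenced from each. The comparison asks whether liver transcripts differ between recipients of the PBS and the DHEA donor pool. With a single pool per group, it cannot separate the donors' treatment from other differences between the pools.

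The liver is a main site of steroid inactivation. The enzymes named 17β-hydroxysteroid dehydrogenases (Hsd17b) interconvert keto and hydroxyl groups; some act on oestradiol and testosterone, and others are known above all for fatty acid or amino acid metabolism despite their name. Srd5a1 encodes steroid 5α-reductase, which turns testosterone into the more potent dihydrotestosterone and also inactivates corticosterone and progesterone. In rats its liver activity is known to be higher in females than in males. Hsd11b1 regenerates active corticosterone inside the cell, and Sts encodes steroid sulfatase, which frees DHEA and oestrone from their sulfates.

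The 6 libraries held 12348511 to 14316886 counts, so that 3 counts, taken as the floor of detection, were worth 0.210 to 0.248 CPM (counts scaled to the same library size). Albumin took 10.6% to 13.5% of counts. The markers of hepatocytes (8 of 8 tested) summed to 173788 to 188606 CPM in t-PBS and 183007 to 202345 CPM in t-DHEA livers. Among markers of steroid-making glands, Cyp11a1, Cyp11b2 and Cyp19a1 were listed at 0 in all livers. Star and Cyp21a1 were not at 0 in every liver, but had too few counts to be tested. Cyp17a1, which rat liver also transcribes at a low level, was at 10.1 to 24.6 CPM. A listed 0 may stem from the counting and does not prove that a transcript was absent. In bulk liver, fewer cells of a type and less RNA per cell cannot be told apart.

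The promoters of 7 of the 10 genes were in the sequence table used here, taken as the 250 bases before the RefSeq transcription start in the GRCr8 assembly; Hsd17b2, Hsd17b6 and Hsd11b1 had no entry. They are shown because Srd5a1, the enzyme with the highest transcript level, and Sts, the sulfatase of the set, had the most GC boxes (GGGCGG on either strand), with 6 and 4. Hsd17b10, like Hsd17b8, had none. The number of boxes did not follow the transcript level, which was lower for Sts than for Hsd17b10. In the first and second sequence below, capitals mark GC boxes, and in the third the CCAAT box (CCAAT on either strand was searched).
Srd5a1, chr1:35514664-35514913, plus strand: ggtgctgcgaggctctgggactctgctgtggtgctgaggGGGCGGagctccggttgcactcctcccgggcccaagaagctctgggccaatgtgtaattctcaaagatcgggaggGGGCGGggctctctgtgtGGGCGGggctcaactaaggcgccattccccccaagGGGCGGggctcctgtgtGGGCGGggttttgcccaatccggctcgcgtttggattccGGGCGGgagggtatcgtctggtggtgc
Sts, chrX:46102510-46102759, plus strand: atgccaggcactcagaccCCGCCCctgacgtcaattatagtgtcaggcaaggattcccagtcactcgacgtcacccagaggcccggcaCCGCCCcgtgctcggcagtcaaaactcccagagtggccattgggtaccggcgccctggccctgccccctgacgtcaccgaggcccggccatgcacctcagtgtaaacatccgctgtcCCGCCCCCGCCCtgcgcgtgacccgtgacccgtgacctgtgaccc
Hsd17b10, chrX:24568301-24568550, plus strand: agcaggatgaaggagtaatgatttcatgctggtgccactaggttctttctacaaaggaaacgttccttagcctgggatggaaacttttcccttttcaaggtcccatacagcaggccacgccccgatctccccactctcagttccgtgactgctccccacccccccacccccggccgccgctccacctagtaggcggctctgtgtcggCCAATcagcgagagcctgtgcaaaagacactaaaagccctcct

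The 7 windows shared a base composition that the choice by name did not use. They were compared with all windows of the sequence table and not with those of genes tested in these livers. The composition is therefore not shown to be particular to this set. All 7 had a GC content above the median of 51.2% over 33469 windows of the same length, from 52% in Hsd17b12 to 66.8% in Sts. All 7 also held more CpG dinucleotides than the median of 5, from 10 in Hsd17b4 and Hsd17b10 to 20 in Sts. A GC box was found in 5 of the 7 windows, against 30.5% of all windows, and a CCAAT box in 6 of the 7, against 34.0%. None held TATAAA, which 12.9% of all windows hold, nor CACGTG, the core of the E-box, which 5.59% hold. These are matches of letters in a short window and not sites at which a factor was seen to bind.

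The transcript levels of the 9 enzymes spanned a wide range when counted per length, as FPKM (fragments per kilobase of transcript at a common depth). Srd5a1 stood at the top with 523, 632 and 763 FPKM as its lowest, median and highest liver, a level above that of 99.3% of the genes tested. It made up 38.5% to 51.3% of the summed FPKM of the set in each liver. Hsd17b2, with 122, 181 and 384 FPKM, came next by its mean over both groups, ahead of Hsd17b11 (188, 201 and 230 FPKM), Hsd17b10 (146, 157 and 183 FPKM) and Hsd17b4 (143, 155 and 165 FPKM). In t-DHEA Hsd17b2 was second with a mean of 289 FPKM, whereas in t-PBS, with 161 FPKM, it lay below Hsd17b11 (212 FPKM) and Hsd17b10 (166 FPKM). The remaining enzymes were far lower. Hsd17b12 gave 24.0, 25.5 and 28.4 FPKM, Sts 19.6, 23.2 and 29.1 FPKM, Hsd11b1 6.67, 11.6 and 21.5 FPKM, and Hsd17b8 3.92, 4.89 and 5.96 FPKM. The FPKM of Hsd17b8 is understated: the length behind it, 3640 bases, is longer than the 2057 bases of its locus, as in 50 of 12210 genes tested. At the length of its locus it would be at 6.94, 8.66 and 10.5 FPKM as lowest, median and highest. These values may still be too low, because every other enzyme has a length below that of its locus, such as 931 of 2470 bases for Hsd17b10.

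Several neighbours in this order could not be told apart. Hsd17b2 had a higher FPKM than Hsd17b11 in only 2 of 6 livers (ratio 1.01), Hsd17b10 exceeded Hsd17b4 in 4 of 6 (ratio 1.04) and Hsd17b12 exceeded Sts in 5 of 6 (ratio 1.09). Sts was above Hsd11b1 in 5 of 6 livers at a ratio of 2.03. The steps from Srd5a1 to Hsd17b2 (ratio 3.07), Hsd17b11 to Hsd17b10 (1.28), Hsd17b4 to Hsd17b12 (5.93) and Hsd11b1 to Hsd17b8 (2.39) held, with the lengths the authors used, in 6 of 6 livers. Each of these gave p = 0.03125 in a two-sided exact sign-flip permutation test over livers, the smallest p that 6 livers allow, and 0.0625 after Benjamini-Hochberg adjustment over the 8 neighbouring pairs. With Hsd17b8 at the length of its locus, Hsd11b1 exceeded it in only 4 of 6 livers (ratio 1.35, p = 0.25 in the same exact test, 0.333 adjusted), so the last step rests on the length used. The order was set on the livers that were then tested, so these p-values describe it and do not prove it.

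**Figure D1:**
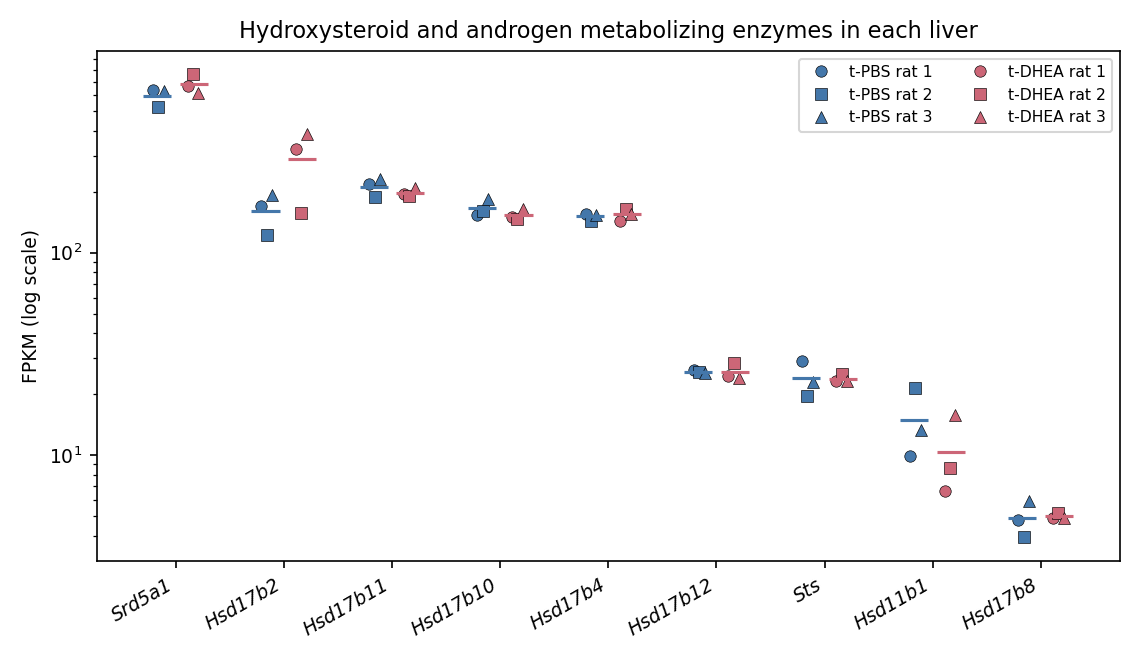
FPKM of the 9 enzymes in each liver on a log axis, with 1 point per liver and short lines for the group means of 3 livers, genes ordered by their mean. Srd5a1 lies between 523 and 763 FPKM in every liver, Hsd17b8 between 3.92 and 5.96 FPKM at the length the authors used, and the points of Hsd17b2 and Hsd11b1 are spread the most.

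The livers of the 2 groups were then compared with edgeR's quasi-likelihood test on counts. The criteria of the study were kept: a called gene passed an unadjusted p of 0.05 and differed by more than 1.2-fold. Over all genes tested, 604 of 12210 (4.95%) were called, 240 higher (1.97%) and 364 lower (2.98%) in t-DHEA. With limma on log2(FPKM + 0.1) the split was 165 higher and 448 lower. No gene had an adjusted p below 0.05 (0 of 12210; 634, or 5.19%, passed 0.05 unadjusted, and DESeq2 and edgeR's likelihood-ratio test gave 20 and 28 such genes). Every call below therefore rests on an unadjusted p.

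Of the 9 enzymes, only Hsd17b2 was called, and it was higher in t-DHEA livers. This is 11.1% of the enzymes, 1 gene, beside 4.95% of all genes tested. In all, 6 enzymes were higher and 3 lower on average, and the median log2 fold change was 0.031 beside 0.0013 over all genes. In none of the 9 did the values of the groups stay apart without overlap (0 of 9, beside 10.1% of all genes tested). Their adjusted p-values in edgeR's test ran from 0.909 to 0.993.

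Hsd17b2 encodes the enzyme that oxidizes oestradiol to oestrone and testosterone to androstenedione, and so inactivates both. Its gene (ENSRNOG00000013982) lies at chr19:50246402-50317891 in the Rnor_6.0 build that the files use. The normalized expression was 216, 149 and 243 CPM in t-PBS rats 1, 2 and 3, and 422, 201 and 492 CPM in t-DHEA rats 1, 2 and 3. t-DHEA rats 1 and 3 were above all t-PBS livers, whereas t-DHEA rat 2 lay inside the t-PBS range, so the groups overlapped. The means were 202 ± 48.5 CPM and 372 ± 152 CPM (SD, n = 3 each), a 1.84-fold difference with a 95% interval from 1.13 to 2.98. On the log2 scale the change was 0.88 (SE 0.31) and edgeR's test gave an unadjusted p of 0.0193 and an adjusted p of 0.909.

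The call of Hsd17b2 depended on which livers entered the fit. The log2 fold change stayed above 0 without each liver in turn, but the call was lost without t-DHEA rat 1 (0.78, unadjusted p of 0.0623), t-DHEA rat 3 (0.63, 0.0824) or t-PBS rat 2 (0.70, 0.0641). Without t-DHEA rat 2 it was 1.18, with an unadjusted p of 0.00027 and an adjusted p of 0.239 in edgeR's test. Across the alternatives its adjusted p lay between 0.239 and 0.9998.

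Some genes of the circadian clock, which drives daily rhythms in liver transcripts, also separated t-DHEA rats 1 and 3 from the other livers. Dbp, an output factor of the clock, was at 32.0, 29.1 and 62.4 CPM in t-PBS rats and 112, 41.7 and 123 CPM in t-DHEA rats 1, 2 and 3. Here too t-DHEA rats 1 and 3 were high, and t-DHEA rat 2 lay inside the t-PBS range. Per3, a component of the repressive arm of the clock, was at 12.4, 10.3 and 13.8 CPM in t-PBS and 32.3, 15.9 and 29.3 CPM in t-DHEA. Arntl, which peaks opposite to Dbp, was at 36.7, 29.1 and 26.0 CPM in t-PBS and 14.1, 22.4 and 13.7 CPM in t-DHEA. For Per3 and Arntl the groups did not overlap, as in 10.1% of all genes tested, and t-DHEA rat 2 was the t-DHEA liver nearest to t-PBS. These 3 of 15 tested clock genes were picked with their values in view, and others differed: Per2, at 8.34, 8.41 and 9.44 CPM in t-PBS, was at 21.8, 11.7 and 13.5 CPM in t-DHEA rats 1, 2 and 3, so that rat 1 alone stood far above the rest. The hour at which livers were taken is not given in the sources used here, and the part of the clock genes in the Hsd17b2 difference was not tested.

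**Figure D2:**
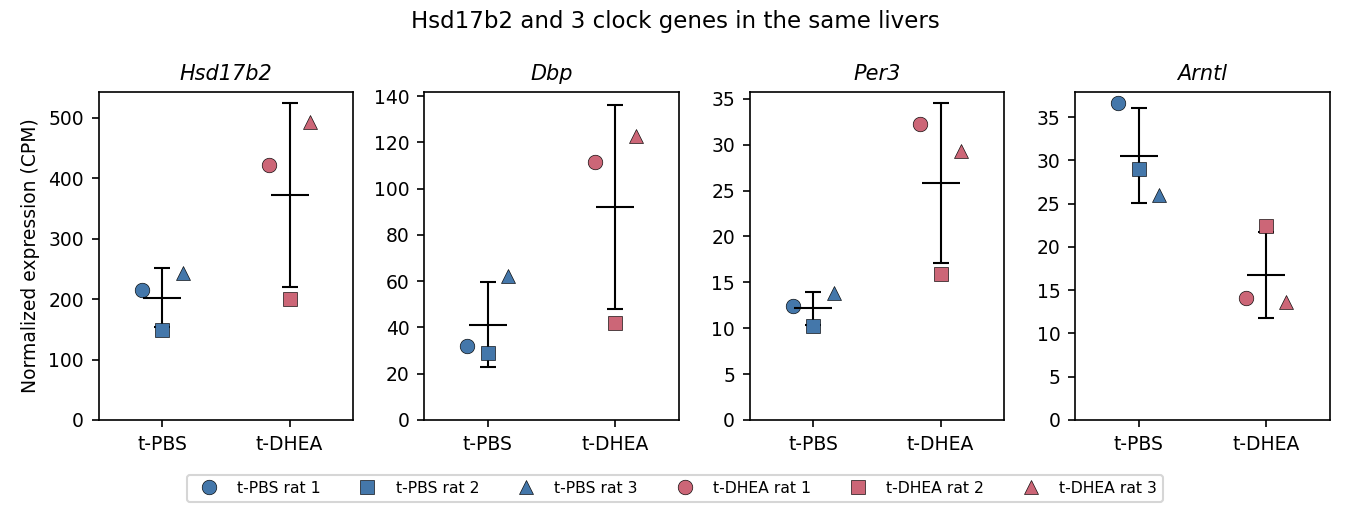
Normalized expression (CPM, axes from 0) of Hsd17b2, Dbp, Per3 and Arntl in each liver, with the mean and SD of 3 livers per group and 1 marker shape per rat number. In t-DHEA, rat 2 lies closest to the t-PBS livers in all 4 panels, at 201 CPM for Hsd17b2 and 41.7 CPM for Dbp.

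Srd5a1 (ENSRNOG00000017601, chr1:36320461-36354756), the 5α-reductase, was at 1725, 1366 and 1714 CPM in t-PBS rats 1, 2 and 3 and at 1850, 2101 and 1683 CPM in t-DHEA rats. t-DHEA rat 3 lay below t-PBS rats 1 and 3, so the groups overlapped. The means were 1602 ± 204 and 1878 ± 210 CPM (SD, n = 3 each), and the fold of 1.17 had a 95% interval from 0.942 to 1.46 (unadjusted p of 0.134 in edgeR's test). A difference larger than 1.46-fold lies outside this interval.

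The enzyme that follows Srd5a1 in the breakdown of dihydrotestosterone is the 3α-hydroxysteroid dehydrogenase Akr1c9, listed in the table under the symbol Akr1c14. It was the most abundant of the partner genes at 1792 ± 88.6 CPM in t-PBS and 2033 ± 147 CPM in t-DHEA. The values of the groups did not overlap, as in 10.1% of all genes, and the log2 fold change of 0.18 was not called (unadjusted p of 0.139). The other 5α-reductases were low: Srd5a2 was listed at 0 in all 6 livers and Srd5a3 at 2.73 to 3.62 CPM. Akr1d1, the 5β-reductase of bile acid and steroid breakdown, was at 504 to 624 CPM. Of 9 tested genes of the list of 5-reductases and aldo-keto reductases, 6 were higher and 3 lower, none was called, and the median log2 fold change was 0.23.

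Hsd11b1 (ENSRNOG00000005861, chr13:111926442-111972603), the reductase that regenerates corticosterone, differed from liver to liver more than any other enzyme of the set. It was at 47.9, 100 and 64.1 CPM in t-PBS rats 1, 2 and 3 and at 32.9, 42.3 and 76.8 CPM in t-DHEA rats. t-DHEA rats 1 and 2 were below all t-PBS livers, whereas t-DHEA rat 3 was above t-PBS rats 1 and 3. The fold was 0.718 with a 95% interval from 0.424 to 1.22 (log2 fold change -0.48, SE 0.33, unadjusted p of 0.187 in edgeR's test). Without t-DHEA rat 3 it was called (-0.90, unadjusted p of 0.0157, adjusted p of 0.891), and without t-PBS rat 2 it was -0.14.

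H6pd makes the NADPH that Hsd11b1 uses inside the endoplasmic reticulum. It was steady at 154 ± 2.19 CPM in t-PBS and 151 ± 9.67 CPM in t-DHEA (log2 fold change -0.031). Of 13 tested genes that are known to respond to glucocorticoids, 10 were higher and 3 lower in t-DHEA (median 0.12 on the log2 scale). The single call was Tat, the tyrosine aminotransferase of liver, at 481, 561 and 621 CPM in t-PBS and 630, 1044 and 992 CPM in t-DHEA (0.68, unadjusted p of 0.0065, adjusted p of 0.805 in edgeR's test). Its groups did not overlap, as in 10.1% of all genes tested, and the call held without each liver in turn.

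**Figure D3:**
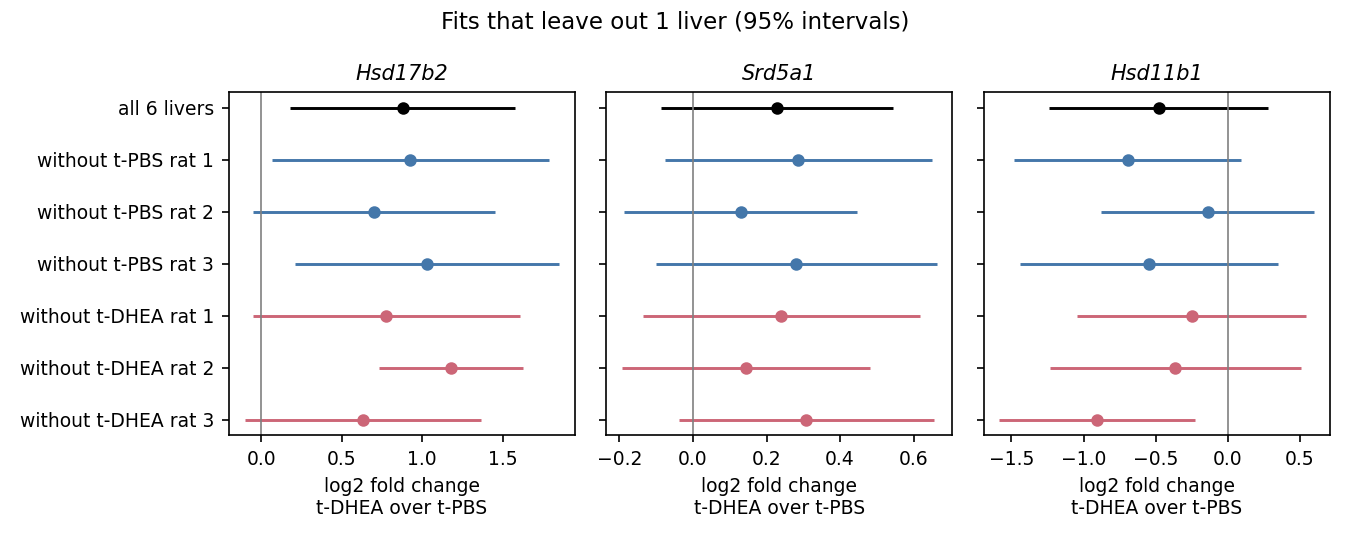
Log2 fold changes with 95% intervals of Hsd17b2, Srd5a1 and Hsd11b1 with all 6 livers and without each liver in turn; each panel has its own axis. Hsd17b2 runs from 0.63 to 1.18, Srd5a1 from 0.13 to 0.31 and Hsd11b1 from -0.90 to -0.14.

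Sts (ENSRNOG00000032487, chrX:45420596-45428750), the sulfatase, was at 75.5, 48.7 and 59.1 CPM in t-PBS and 60.9, 66.0 and 60.5 CPM in t-DHEA rats 1, 2 and 3. The t-DHEA livers lay close together inside the wider t-PBS range. The means were 61.1 ± 13.5 and 62.5 ± 3.05 CPM (SD, n = 3 each), and the 95% interval of the fold ran from 0.807 to 1.29. Sumf1, which activates sulfatases after translation, was at 30.2 ± 2.53 and 29.3 ± 4.62 CPM.

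Enzymes that act opposite to Sts or that conjugate steroids for excretion were among the most abundant transcripts described here. Sult2a1, which sulfates DHEA and bile acids, ran from 3885 to 6677 CPM over the 6 livers, and no gene of its list was called (9 tested, 6 higher, 3 lower, median log2 fold change 0.057). Ugt2b15, a glucuronosyltransferase of androgens, was spread widely within both groups, at 2520, 1915 and 814 CPM in t-PBS and 805, 720 and 2262 CPM in t-DHEA.

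The remaining enzymes of the set carry the Hsd17b name but are best known for work outside the sex steroids. Each of them differed between the groups by less than the larger of the group SDs. Hsd17b4 (ENSRNOG00000015840, chr18:44810388-44897640) encodes the D-bifunctional protein of peroxisomal β-oxidation. It was at 482, 425 and 475 CPM in t-PBS and 452, 515 and 486 CPM in t-DHEA, and the interval of its fold was the range from 0.893 to 1.24. No gene of peroxisomal β-oxidation was called (11 tested, 5 higher, 6 lower, median -0.0083).

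Hsd17b10 (ENSRNOG00000003049, chrX:21696772-21699241) works in mitochondria, in isoleucine breakdown and as a subunit of the RNase P that trims mitochondrial tRNAs. It was at 143, 144 and 171 CPM in t-PBS and 143, 138 and 154 CPM in t-DHEA, with a fold interval from 0.806 to 1.12. Its locus overlaps that of Ribc1, which had 11 to 45 counts a liver. Trmt10c, its partner in RNase P, was at 10.9 ± 1.07 and 11.4 ± 1.44 CPM. The list of mitochondrial RNase P and branched-chain partners held no call (10 tested, 7 higher, 3 lower, median 0.067).

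Hsd17b8 (ENSRNOG00000000466, chr20:3817179-3819235) forms the ketoacyl reductase of mitochondrial fatty acid synthesis together with Cbr4. It was the lowest of the set at 17.4, 13.7 and 21.7 CPM in t-PBS and 18.2, 19.1 and 18 CPM in t-DHEA. The t-DHEA livers again lay inside the t-PBS range, with SDs of 0.580 and 3.98 CPM. Cbr4 was at 19.8 ± 2.90 and 23.1 ± 2.56 CPM (log2 fold change 0.22, unadjusted p of 0.147). In the list of mitochondrial fatty acid synthesis 6 of 7 tested genes were higher, none was called, and the median was 0.14.

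Hsd17b11 (ENSRNOG00000002210, chr14:7073445-7104566) sits on lipid droplets. It was at 349, 288 and 366 CPM in t-PBS and 317, 308 and 335 CPM in t-DHEA, with a fold interval from 0.80 to 1.15. Hsd17b13, its paralogue on lipid droplets, begins 8977 bases further along the chromosome and was at 237 ± 11.4 and 231 ± 42.6 CPM. Of 12 tested lipid droplet genes, 6 were higher and 6 lower, and Plin2 and Dgat2 were called in opposite directions. Plin2, a coat protein of droplets, was at 158, 161 and 153 CPM in t-PBS and 111, 131 and 104 CPM in t-DHEA (-0.45, unadjusted p of 0.0025, adjusted p of 0.796 in edgeR's test). Dgat2, which makes triglyceride, was higher by 0.36 (unadjusted p of 0.0296) and lost its call without t-DHEA rat 1 (0.22), t-PBS rat 1 (0.38) or t-PBS rat 2 (0.30).

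Hsd17b12 (ENSRNOG00000009630, chr3:82924687-83048435) reduces 3-ketoacyl-CoA in the elongation of very long chain fatty acids. It was at 86.3, 80.7 and 82.4 CPM in t-PBS and 81.9, 93.7 and 79.1 CPM in t-DHEA. Its log2 fold change of 0.031 (95% interval from -0.19 to 0.25) turned to -0.011 with limma on log2(FPKM + 0.1), so it had no stable direction. A short annotated gene, AC140988.1, lies within its locus and had 331 to 414 counts a liver; how reads were shared between them is not stated. Tecr, which makes the last reduction of the elongation cycle, was at 227 ± 40.6 and 217 ± 37.8 CPM, and no elongation gene was called (7 tested, 2 higher, 5 lower, median -0.064).

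**Figure D4:**
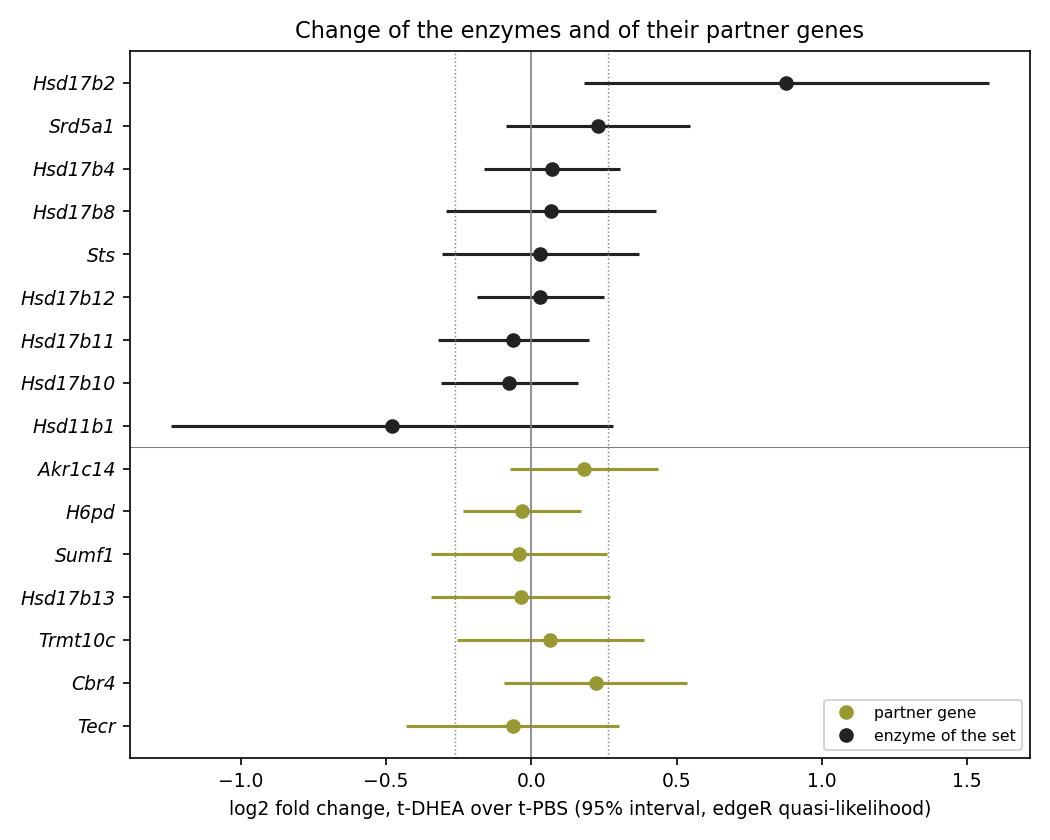
Log2 fold changes (t-DHEA over t-PBS) with 95% intervals for the 9 enzymes and 7 partner genes; dotted lines mark a fold-change of 1.2. Only the interval of Hsd17b2 (0.18 to 1.57) stays clear of 0, and that of Hsd11b1 (-1.24 to 0.28) is the widest.

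The enzymes varied unequally among livers of the same group. The within-group SD of log2 CPM was 0.58 for Hsd11b1 and 0.55 for Hsd17b2, above 94.7% and 93.8% of all genes tested, against a median of 0.19. It was 0.23 for Hsd17b8 and Sts, 0.18 for Srd5a1, 0.14 for Hsd17b11 and 0.12 for Hsd17b10, and lowest for Hsd17b12 (0.098) and Hsd17b4 (0.096). t-PBS rat 2 was the lowest of all livers for 6 of the 9 enzymes and the highest for Hsd11b1. Its library had the largest scaling factor, 1.04 against 0.982 to 1.0 in the others. By FPKM, which does not use this factor, the same liver was also the lowest for the same 6 enzymes.

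Other genes of steroid metabolism gave few calls. The list of other 17β-hydroxysteroid dehydrogenases also holds genes without the Hsd17b name, such as Dhrs9, Rdh5 and Cbr4. In it 6 genes were tested, with 1 called in each direction: Hsd17b7 higher and Dhrs9 lower in t-DHEA. Hsd17b7, which acts in cholesterol synthesis and can reduce oestrone, was at 23.3 ± 1.01 CPM in t-PBS and 32.0 ± 5.39 CPM in t-DHEA (0.46, SE 0.13, unadjusted p of 0.0070). Its groups did not overlap, as in 10.1% of all genes tested, and the call held without each liver in turn. Dhrs9 was rare: it had 27, 14 and 18 counts in t-PBS and 1, 0 and 6 counts in t-DHEA rats 1, 2 and 3 (unadjusted p of 0.0028, adjusted p of 0.796, against 0.0014 in edgeR's likelihood-ratio test and 0.210 in DESeq2). Hsd17b1 and Hsd17b3, which make oestradiol and testosterone in the gonads, had at most 6 and 2 counts in any liver, and Hsd17b14 had 0. Of the 3β-hydroxysteroid dehydrogenases, Hsd3b7 alone was tested, at 19.98 to 63.5 CPM, and it was not called.

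No steroid hydroxylase was called (10 tested, 4 higher, 6 lower, median log2 fold change -0.041). The same held for cofactor supply (12 tested, 5 higher, 7 lower, median -0.036) and for steroid receptors and binding proteins (5 tested, 2 higher, 3 lower, median -0.0035). Cyp2c12, the steroid sulfate hydroxylase typical of female rat liver, was at 5262 to 6564 CPM over the 6 livers. The male-typical Cyp2c11 had 2 to 62 counts, and the list of sex-dependent genes held no call (3 tested, 2 higher, 1 lower, median 0.071). The clock list held 6 of the 11 calls over all lists. Besides Per3 (1.09, unadjusted p of 0.0018, adjusted p of 0.796) and Arntl (-0.87, 0.0026), these were, with the unadjusted p after each value, Per2 (0.84, 0.0046), Tef (0.67, 0.0083), Usp2 (1.36, 0.0185) and Dbp (1.16, 0.0194). Per3 was among the genes that passed other tests, with an adjusted p of 0.0178 in DESeq2 and 0.0199 in edgeR's likelihood-ratio test. Of 15 clock genes tested, 11 were higher and 4 lower, with a median of 0.32. Dbp lost its call without t-DHEA rat 1, t-DHEA rat 3, t-PBS rat 1 or t-PBS rat 2, with values of 1.0, 0.91, 1.01 and 0.97. Usp2 lost it without t-DHEA rat 1 (0.95), t-DHEA rat 3 (1.24) or t-PBS rat 1 (1.23) and in both limma fits (1.02 and 0.66). Over all lists, 11 of 125 tested genes were called (8.8%, 8 higher and 3 lower), beside 4.95% of all genes tested (1.97% higher and 2.98% lower).

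**Figure D5:**
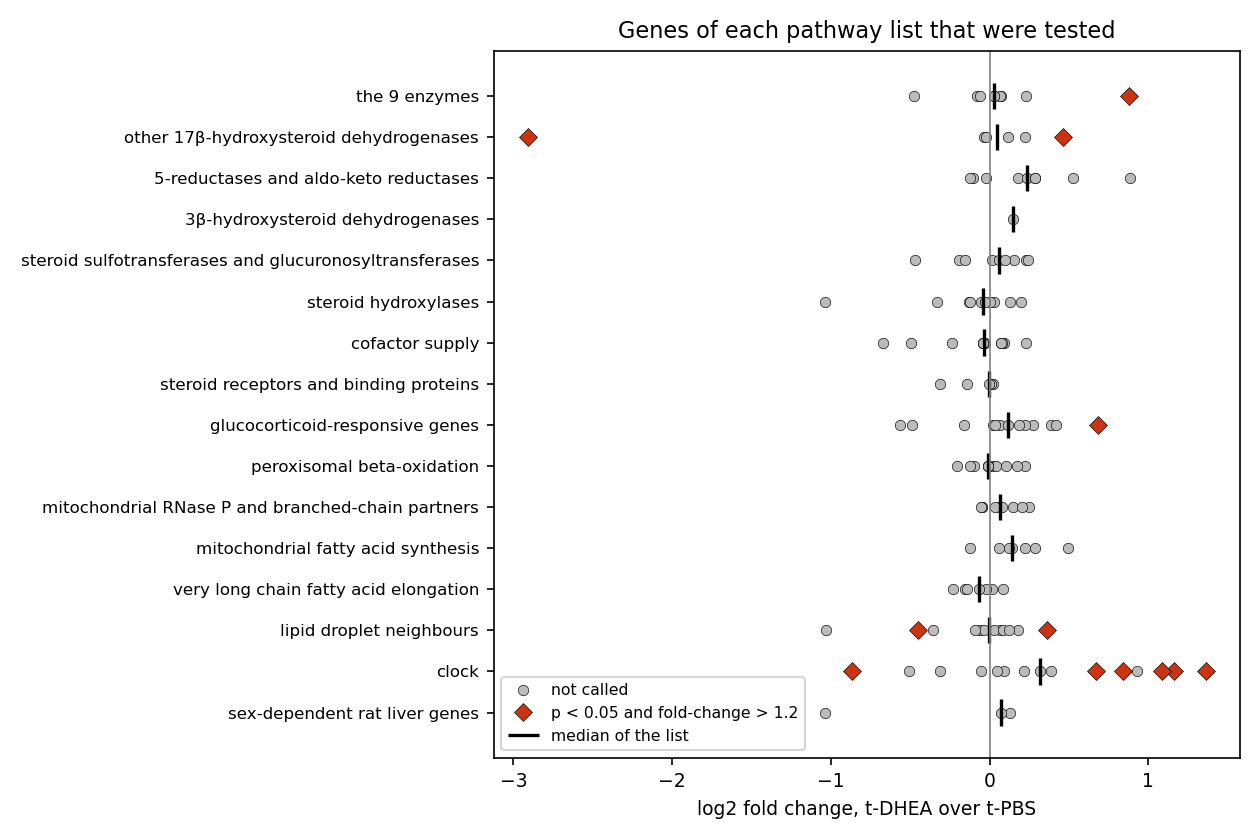
Log2 fold change (t-DHEA over t-PBS) of each tested gene in the pathway lists, with the 9 enzymes on top; diamonds are called genes, and vertical bars are list medians. The clock list holds 6 of the 11 called genes, and most lists hold none.

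Markers of other cells also moved with the groups. Over all genes tested, 1.97% were called higher and 2.98% lower. All 4 tested mesothelial markers were called lower in t-DHEA, and the 5 listed summed to 22.4 to 24.6 CPM in t-PBS against 1.72 to 11 CPM in t-DHEA. Bile duct markers, of which 2 of 5 tested were called lower, summed to 18.9 to 23.6 CPM against 9.50 to 17.2 CPM. Red cell markers, of which 3 of 5 were called higher, summed to 185 to 284 CPM against 304 to 590 CPM. Stellate and fibroblast markers had 2 of 7 called lower (560 to 727 CPM against 461 to 543 CPM), endothelial markers 1 of 5 called higher (207 to 323 CPM against 303 to 312 CPM) and Kupffer cell markers none of 8 (544 to 680 CPM against 585 to 799 CPM). Hepatocyte markers held no call among 8. The part of these cells in the values of Hsd17b2 and of the other enzymes was not tested.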

How the data were processed

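RNA of snap-frozen liver from 6 FMT recipients (3 t-PBS, 3 t-DHEA) was sequenced in pairs with the TruSeq kit. Per the labels and the methods of the study, reads were aligned to Rnor_6.0 with HISAT2 2.0.4 and assembled and counted with StringTie 1.3.0; the annotation release and strand setting are not given in the sources used here. The authors deposited read counts and FPKM values per gene. The deposited FPKM values equal the count divided by a fixed length per gene and by the library total; that length can exceed the locus. Depth was 12348511 to 14316886 counts per library.

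Counts were tested with edgeR 4.0.16 (TMM scaling, filterByExpr, quasi-likelihood, two-sided, no covariates) in R 4.3.3, which kept 12210 genes, with Benjamini-Hochberg adjustment over all of them. CPM values are scaled by TMM, and FPKM was used only to compare genes. Intervals are at 95%. Sign-flip tests used scipy 1.17.1. DESeq2 1.42.0, limma 3.58.1 on log2 FPKM, other scalings, other filters and fits without each liver were alternatives. The fit was tested on simulated data. No 2 libraries were duplicates. The animals are separate, but their cages are not in the labels, so p-values measure the spread between these rats.

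The members, the lists of 15 pathways and 8 marker groups and the tests were chosen with earlier results of these data known, and no list is independent support. Genes named are the members, their direct partners, and up to 3 called genes per pathway list with the lowest p. Tef, Per2, Usp2 and Dbp were named, with other genes given only as levels, after their values were seen. Of 227 listed symbols, 190 matched by gene name and 6 by an older or newer symbol; 10 had several rows and were not used, and 21 had no match. Promoters came from RefSeq (GRCr8), and no coordinate was carried between builds. A planned comparison of member proteins was not run, and 1 partner gene is not reported here.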

Additional observations from a re-analysis of the deposited data

How the results depend on the processing

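Of the calls on the 9 enzymes, Hsd17b2 kept its call with every other scaling, filter and test, with a log2 fold change above 0 throughout. Without 1 liver, 0 to 1 enzymes were called: none (0) when t-DHEA rat 1 or t-PBS rat 2 was left out, and Hsd11b1 in place of Hsd17b2 when t-DHEA rat 3 was. Calls over all genes ran from 514 to 747 without 1 liver and were 275 at a fold-change above 1.5 and 776 without a filter, beside 604. Calls over the pathway lists were 11, and 13 to 22 without 1 liver. The ratio of Hsd11b1 to Hsd17b8 in FPKM went from 2.39 to 1.35 with Hsd17b8 at the length of its locus, an alternative chosen after seeing the data. The median of the enzymes ran from -0.080 to 0.074. Directions that turned were those of small changes: Hsd17b12 was at -0.011 and -0.010 with limma on log2(FPKM + 0.1) and log2(FPKM + 1), and without 1 liver it ran from -0.043 to 0.085, Sts from -0.10 to 0.21, Hsd17b8 from -0.080 to 0.24, Hsd17b10 from -0.12 to 0.011 and Hsd17b11 from -0.16 to 0.0093. Among partners the ranges were -0.085 to 0.0082 for H6pd, -0.18 to 0.078 for Hsd17b13, -0.18 to 0.028 for Sumf1, -0.21 to 0.087 for Tecr and -0.032 to 0.15 for Trmt10c. The cause of these turns was not tested. Over all genes tested, livers with the same number in both groups did not deviate together (correlations of -0.057, -0.059 and -0.055), and 0 of 6 were closest to their own number. The labels name no pairs, the paper allocated the recipients to the groups at random, and pairing for single genes was not tested. Hsd17b2 happened to be lowest in rat 2 and highest in rat 3 in both groups, an order that a block by number takes up. A fit with the replicate block gave 539 calls over all genes, 14 over the lists and 1 among the enzymes. In that fit Hsd17b2 was at 0.81 (SE 0.14, unadjusted p of 0.0012 in edgeR's test, adjusted p of 0.979), beside 0.88 (SE 0.31) without the block. As no pairs are named, the smaller SE does not make the call firmer. With 3 livers per group, the widest interval among the enzymes, that of Hsd11b1, allowed a fold from 0.424 to 1.22, and Pex5 and Pnpla2, which most cells use, were listed at 0 in every liver, so a 0 in this table may stem from the counting.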

Other observations

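A gene described in RefSeq as similar to Hsd17b6, LOC100362350, was present although Hsd17b6 itself had no row. A row of this symbol on chromosome 13, ENSRNOG00000007758, held 3 counts over the t-PBS and 10 over the t-DHEA livers and was not tested. Its other row, ENSRNOG00000002597 (chr7:2412363-2431197, Rnor_6.0), was at 87.6, 78.1 and 107 CPM in t-PBS rats 1, 2 and 3. In t-DHEA rats that row was at 102, 126 and 80.7 CPM. The values of the groups overlapped, with a fold of 1.13 (95% interval from 0.862 to 1.49) in edgeR's test and an unadjusted p of 0.330. Whether it holds the reads of Hsd17b6 was not tested.

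Pnpla3 and Me1 varied widely within both groups. Pnpla3, a lipase relative on lipid droplets, was at 74.4, 745 and 468 CPM in t-PBS and 401, 60.4 and 170 CPM in t-DHEA rats 1, 2 and 3. Me1, malic enzyme, which supplies NADPH in the cytosol, was at 61.6, 227 and 153 CPM in t-PBS and 89.3, 63.2 and 125 CPM in t-DHEA. Both were highest in t-PBS rat 2, the liver that also had the highest Hsd11b1, and neither was called. These genes were named after their values were seen.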
